A study of Homo sapiens with 6 samples.

Results

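PARP9, DTX3L, APOL6 and SAMD9 are 4 of the 770 genes on the nCounter PanCancer IO 360 panel, chosen as interferon genes that rose after interferon-gamma under both vectors of the study. Each had 1 probe, and all 4 were among the 669 genes with enough counts to be tested. The panel counts fluorescent barcodes hybridised to single RNA molecules, without amplification, in total RNA from cultures labelled PC3, an established prostate carcinoma line from a bone metastasis. The cells carried an empty vector (EV) or an expression vector for BTN1A1, a butyrophilin of the cell membrane. They were grown in DMEM/F12 with serum and either left untreated, in wells labelled 48 h, or given interferon-gamma at 100 ng/ml for 24 h or 48 h. There was 1 library for each of the 6 combinations, hence no replicate of any. Whether a vector's cells were a clone or a pool was not given in the sources used.

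Interferon-gamma is a cytokine of T and NK cells that signals through a receptor, JAK kinases and STAT factors and then through the factors IRF1 and IRF9. PARP9 and DTX3L encode partner proteins: PARP9 is a macrodomain member of the ADP-ribosyltransferase family, DTX3L is an E3 ubiquitin ligase of the Deltex family, and the complex acts in interferon signalling and in the response to DNA damage. APOL6 is an intracellular apolipoprotein L with a BH3-like motif that promotes cell death when overexpressed, and SAMD9 is a cytosolic protein that restricts poxviruses and cell growth.

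PARP9 and DTX3L lie head to head on chromosome 3 (chr3:122527924-122564784 and chr3:122564338-122575203 in GRCh38.p14), so their 5′ ends overlap. SAMD9 lies at chr7:93099518-93117979 and APOL6 at chr22:35648446-35668404. RefSeq promoter windows of GRCh38.p14, from 250 bases before to 50 after a transcript start, were matched for PARP9 (2 windows), DTX3L and SAMD9. They were searched on both strands for the interferon-stimulated response element, written as GAAA on each side of any 2 bases, and for the gamma-activated site written as TTCNNNGAA. The first motif was in 3.57% of 35116 RefSeq windows and the second in 7.66%. The DTX3L window held 1 match to the first motif, from position -6 relative to the DTX3L start, and the same bases lie in the PARP9 window around its start at position 122564300, 38 bases away on the other strand. The PARP9 window at its other start, position 122564784, held none. The SAMD9 window held 1 match from position -136. None of these windows held the second motif, and a match in letters is a description only. For APOL6 no window was in the sources used, so its promoter was not searched. The stretch from just before the PARP9 start to just after the DTX3L start (chr3:122564301-122564350, plus strand) and the 250 bases before the SAMD9 start (chr7:93117980-93118229, minus strand) are shown because they hold these matches, in capitals.
DTX3L and PARP9: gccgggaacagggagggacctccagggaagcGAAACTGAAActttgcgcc
SAMD9: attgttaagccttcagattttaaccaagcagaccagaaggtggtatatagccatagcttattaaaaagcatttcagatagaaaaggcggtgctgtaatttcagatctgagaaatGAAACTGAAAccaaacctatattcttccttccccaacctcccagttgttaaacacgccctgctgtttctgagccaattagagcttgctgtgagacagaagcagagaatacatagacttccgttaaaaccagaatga

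Total counts per library ran from 221633 to 441611, and counts were scaled by 19 panel housekeeping genes. The panel held 0 probes for BTN1A1, so the transfected gene was not measured. Some genes went against the label PC3 in the BTN1A1-labelled libraries. STAT3, a gene the PC3 line is known to have lost, stood at 10 to 20 counts in EV and at 383 to 593 in the BTN1A1-labelled libraries. The epithelial adhesion genes EPCAM and CDH1 stood at 210 to 242 and 145 to 197 counts in EV and at 29 to 59 and 26 to 31 in the BTN1A1-labelled libraries. A difference between the vectors below therefore cannot be told apart from a difference between cultures. Background was read from 39 T, NK, B and myeloid markers, whose median was 17 to 22 counts in every library. Their sum was 879 to 1144 in EV and 805 to 833 in the BTN1A1-labelled libraries, and 0 of the 39 were at 0 in any library.

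All 4 genes were higher after interferon-gamma than before it in every treated library of both vectors, and all were far lower in the BTN1A1-labelled libraries. The rise is what the genes were chosen for, so the values of it are a description without a test. Intervals given with counts and folds are exact 95% intervals for counting error only. Levels are not compared between genes, since each probe binds with its own efficiency.

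PARP9 stood at 222 counts in EV untreated, 1920 at 24 h and 1874 at 48 h, against 51, 182 and 184 in the BTN1A1-labelled libraries. Scaled by the housekeeping genes these were 225, 1752 and 2092 in EV and 46.1, 156 and 229 in the BTN1A1-labelled libraries. Both treated EV libraries stood above all the others, and the untreated library labelled BTN1A1 was the lowest. The treated level at 48 h with the BTN1A1 label (229) and the untreated EV level (225) did not differ beyond counting error, with a ratio of 1.02 (0.834 to 1.25).

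DTX3L, the ligase partner, stood at 317, 2139 and 2542 counts in EV and at 120, 428 and 383 in the BTN1A1-labelled libraries. Its scaled counts were 321, 1951 and 2837 in EV and 108, 368 and 477 in the BTN1A1-labelled libraries. The order of the libraries was the same as for PARP9 except that the treated level at 24 h with the BTN1A1 label was not below untreated EV, from which it did not differ beyond counting error (ratio 1.15, 0.988 to 1.33). That closeness rested on the housekeeping scaling. With TMM scaling these levels of DTX3L were 446.7 and, in untreated EV, 275.7. They were 463.7 and 269.8 with median-ratio factors, and 453.4 and 348.6 with total counts. For PARP9 they were 189.9 and 193.0 with TMM scaling, and 197.2 and 188.9 with median-ratio factors.

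APOL6 stood at 71, 955 and 945 counts in EV and at 21, 40 and 90 in the BTN1A1-labelled libraries, or 71.9, 871 and 1055 and 19.0, 34.4 and 112 scaled. It was the member nearest to background: its count of 21 in the untreated library labelled BTN1A1 lay 1 count above the immune marker median there, and its 40 at 24 h was 1.82 times the median. A fold for APOL6 against that untreated library holds background in its denominator. All 5 neighbouring pairs in the order of its scaled levels differed beyond counting error.

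SAMD9 stood at 119, 645 and 914 counts in EV and at 28, 78 and 59 in the BTN1A1-labelled libraries, or 121, 588 and 1020 and 25.3, 67.0 and 73.5 scaled. It was the one member of which both treated libraries labelled BTN1A1 stayed below untreated EV. These treated libraries did not differ from each other beyond counting error (ratio 1.10, 0.769 to 1.56). The untreated count of 28 was 1.40 times the immune marker median.

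**Figure D1:**
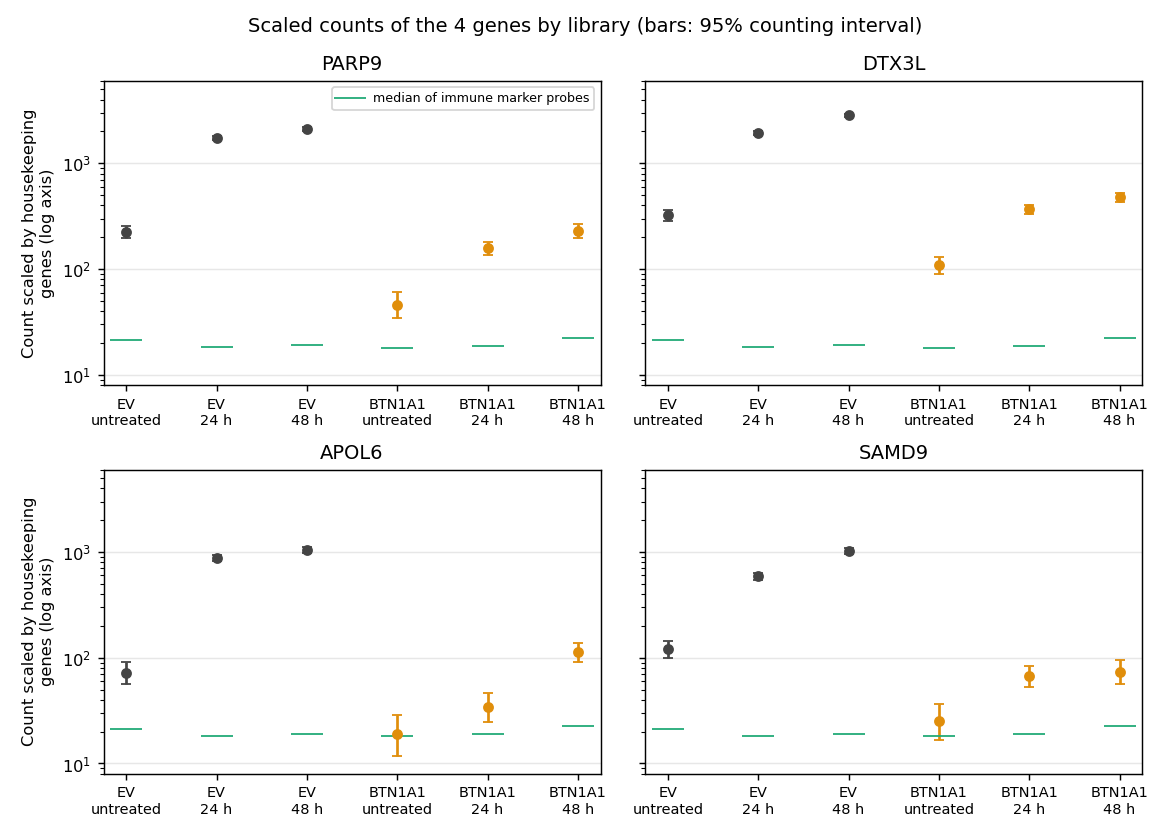
Housekeeping-scaled counts of PARP9, DTX3L, APOL6 and SAMD9 (log axis) in the 6 libraries, EV in grey and those labelled BTN1A1 in orange, with 95% counting intervals; green bars mark the scaled median of the immune marker probes. In each panel the treated EV libraries are the highest, from 588 (SAMD9, 24 h) to 2837 (DTX3L, 48 h), and APOL6 in the untreated library labelled BTN1A1 (19.0) lies at the background.

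In EV the rises spread from 4.88-fold to 14.7-fold. At 24 h APOL6 was 12.1-fold (9.51 to 15.6) above untreated, PARP9 7.79-fold (6.77 to 8.99), DTX3L 6.08-fold (5.40 to 6.86) and SAMD9 4.88-fold (4.01 to 5.99). At 48 h APOL6 was 14.7-fold (11.5 to 18.9) above untreated, PARP9 9.30-fold (8.09 to 10.7), DTX3L 8.83-fold (7.86 to 9.96) and SAMD9 8.46-fold (6.98 to 10.3). The untreated wells were labelled 48 h, so at 24 h treatment and time in culture cannot be told apart. All 4 genes were at least 2-fold higher at both times, where 12.4% of 662 genes were at 24 h and 14.4% of 673 at 48 h. The genes were chosen on this contrast, so nothing is read from that count.

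In the BTN1A1-labelled libraries the rises spread from 1.81-fold to 5.91-fold, and without background subtraction each was smaller than in EV at the same time. PARP9 and DTX3L were both 3.39-fold higher at 24 h (2.47 to 4.72 and 2.76 to 4.19), and 4.97-fold (3.63 to 6.92) and 4.40-fold (3.57 to 5.44) at 48 h. SAMD9 was 2.65-fold (1.70 to 4.24) and 2.90-fold (1.82 to 4.73) higher. APOL6 had the widest gap between times, 1.81-fold (1.04 to 3.23) at 24 h and 5.91-fold (3.64 to 10.0) at 48 h. At least 2-fold higher were 3 of the 4 genes at 24 h, where 3.05% of 558 genes were, and 4 of 4 at 48 h, where 4.86% of 638 were. This rise too was part of the choice of genes, so nothing is read from these counts. Subtracting the immune marker median left APOL6 with 1 count in the untreated library, which was set to 3. Its log2 difference then went from 0.86 to 2.51 at 24 h and from 2.56 to 5.05 at 48 h, and that of SAMD9 from 1.40 to 2.73 and from 1.54 to 2.82. In EV the subtracted log2 differences were 4.07 and 4.35 for APOL6 and 2.52 and 3.33 for SAMD9. After subtraction the rise was thus larger with the BTN1A1 label for APOL6 at 48 h and for SAMD9 at 24 h, and smaller for PARP9 and DTX3L at both times.

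With 24 h and 48 h taken as repeats of 1 treated state, the fitted log2 rises in EV were 3.74 for APOL6, 3.09 for PARP9, 2.90 for DTX3L and 2.74 for SAMD9. In the BTN1A1-labelled libraries they were 1.92, 2.06, 1.959 and 1.47 for the same genes. For APOL6 under the BTN1A1 label 1 library decided the value, which was 0.85 without the 48 h library and 2.55 without the 24 h library. The median over the 4 genes was 2.996 in EV and 1.94 with the BTN1A1 label, against -0.11 and 0.12 over all 669 genes tested. PARP9, DTX3L, APOL6 and SAMD9 ranked 25, 32, 19 and 35 of 669 by rise in EV, and 6, 9, 10 and 14 in the BTN1A1-labelled libraries. By edgeR's quasi-likelihood test (Benjamini-Hochberg adjusted) 10.3% of all genes rose in EV and 1.05% in the BTN1A1-labelled libraries.

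The fitted rise of each member, with no background subtracted, was smaller with the BTN1A1 label. The difference in log2 rise was -1.82 for APOL6, -1.27 for SAMD9, -1.04 for PARP9 and -0.94 for DTX3L. The APOL6 value was -2.89 without the 48 h BTN1A1-labelled library. In edgeR's test 4.48% of all genes differed in response. The members' rises and differences are given without a test or an SE, since the choice of genes that rose in both bounds the difference. Beside them the tryptophan enzyme IDO1 differed by -7.20 (SE 0.88) and the GTPase GBP1 by -5.84 (SE 0.98), with edgeR adjusted p of 5.63e-13 and 3.84e-07. In the BTN1A1-labelled libraries IDO1 (34, 26 and 37 counts) and GBP1 (8, 15 and 22) stood near the immune marker medians of 20, 22 and 18. Their rises there are therefore limited by background, as is the untreated EV level of GBP1 (22 counts). IRF1, the factor that acts downstream of STAT factors, rose by 5.08 in EV and by 2.57 with the BTN1A1 label (difference -2.51, SE 0.75, edgeR adjusted p 0.0208). The antiviral IFIT3 had values close to those of PARP9, 3.06 and 2.06, and its difference of -1.001 (SE 0.76) did not pass (edgeR adjusted p 0.780).

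**Figure D2:**
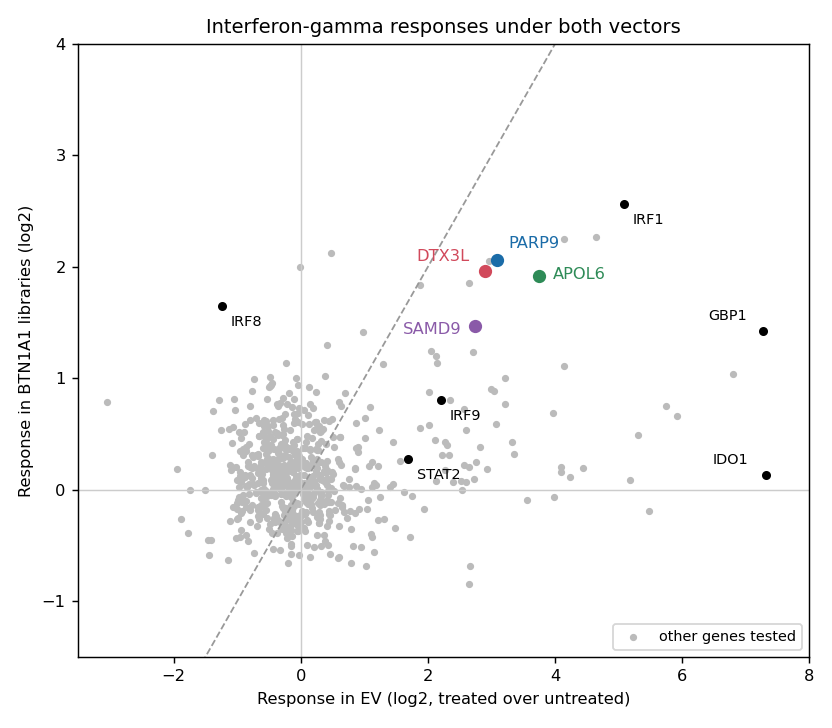
Fitted log2 rise after interferon-gamma in EV (x axis) against that in the BTN1A1-labelled libraries (y axis) for 669 genes; the dashed line marks equal responses. PARP9 (3.09 and 2.06), DTX3L (2.90 and 1.959), APOL6 (3.74 and 1.92) and SAMD9 (2.74 and 1.47) lie above most genes that rose in EV, such as IDO1 (7.33 and 0.13), STAT2 (1.69 and 0.28) and IRF9 (2.20 and 0.81). The choice of genes that rose under both vectors sets this position, so nothing is read from it. IRF1 (5.08 and 2.57), PSMB9 (4.65 and 2.27) and TAP1 (4.14 and 2.25) lie above all the members.

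The rule of choice asked for a rise under both vectors and not for a gap between them. The same 6 libraries enter both, and the treated EV levels that made up the rise in EV also enter the gap. The p-values of this comparison are therefore not independent of the choice. Over the 3 conditions, PARP9 was 8.01-fold lower with the BTN1A1 label than in EV (log2 difference -3.001, SE 0.34), APOL6 9.99-fold lower (-3.32, SE 0.52), SAMD9 8.48-fold lower (-3.08, SE 0.38) and DTX3L 4.56-fold lower (-2.19, SE 0.31). All 4 passed in edgeR's quasi-likelihood test over all 669 genes, with adjusted p of 0.000245 for PARP9, 0.000369 for SAMD9, 0.000786 for DTX3L and 0.0014 for APOL6, and each was lower in 3 of 3 conditions. In this comparison 29.9% of the genes tested were lower and 11.8% higher (200 and 79 of 669), and the median over all genes was -0.28. With TMM scaling the split was 156 lower and 112 higher, with median-ratio factors 167 and 114 and with total counts 150 and 120, and the 4 genes stayed lower and called in each. STAT3 differed by 4.87 (SE 0.42) the other way, and the antiviral genes listed below were lower in 18 of 22 cases. In RNA from whole cultures, fewer responding cells and less RNA per cell cannot be told apart.

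Condition by condition, with no background subtracted, the gap was narrowest without interferon-gamma. Untreated, PARP9 was 4.88-fold lower with the BTN1A1 label (3.58 to 6.75), SAMD9 4.76-fold (3.13 to 7.47), APOL6 3.79-fold (2.30 to 6.49) and DTX3L 2.96-fold (2.39 to 3.68). At 24 h the gap was 11.2-fold for PARP9, 8.78-fold for SAMD9, 25.3-fold for APOL6 and 5.30-fold for DTX3L. At 48 h it was 9.12-fold, 13.9-fold, 9.40-fold and 5.94-fold in the same order. DTX3L had the smallest gap of the 4 in each condition. All 4 were at least 2-fold lower in every condition, where 26.9%, 32.2% and 27.6% of genes were. With background subtracted the untreated log2 gap went from -1.92 to -4.22 for APOL6 and from -2.25 to -3.78 for SAMD9. The subtracted gaps at 24 h and 48 h were -5.78 and -3.53 for APOL6 and -3.57 and -4.29 for SAMD9, so the untreated gap was then not the narrowest for these genes, while it remained so for PARP9 and DTX3L. The untreated libraries also enter the contrast the genes were chosen on, so these folds carry no test.

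**Figure D3:**
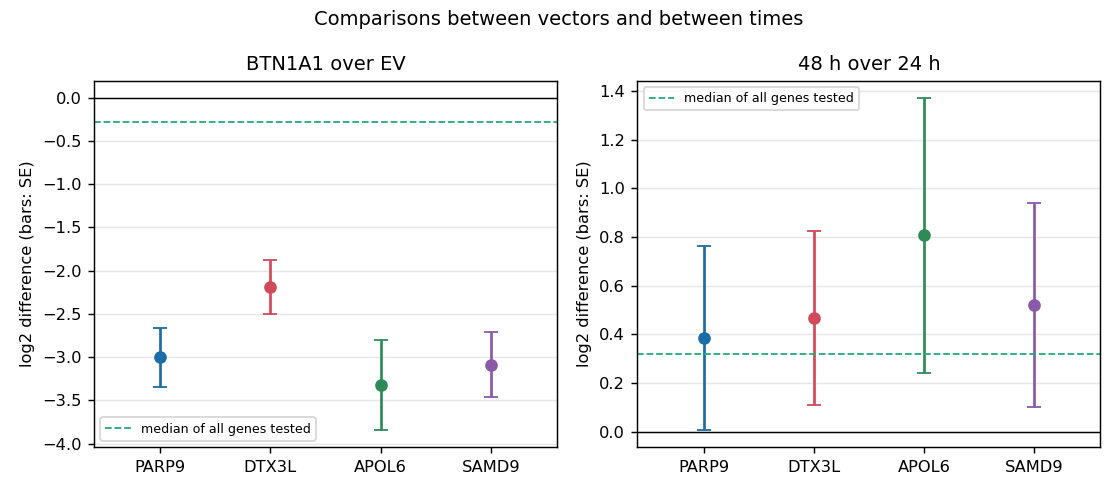
Fitted log2 differences of the 4 genes, BTN1A1 label over EV (left) and 48 h over 24 h of interferon-gamma (right), with SE bars and the median of all 669 genes tested as a dashed line. Left, all 4 lie between -3.32 and -2.19, far under the median of -0.28; right, they lie between 0.38 and 0.81, near the median of 0.32.

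Whether the genes went on rising from 24 h to 48 h was also not part of their choice. Over both vectors the log2 difference of 48 h over 24 h was 0.81 (SE 0.56) for APOL6, 0.52 (SE 0.42) for SAMD9, 0.47 (SE 0.36) for DTX3L and 0.38 (SE 0.38) for PARP9. The 95% intervals ran from -0.30 to 1.92 for APOL6, -0.30 to 1.34 for SAMD9, -0.24 to 1.17 for DTX3L and -0.36 to 1.13 for PARP9. The APOL6 value rested on single libraries, at 0.0098 without the 24 h BTN1A1-labelled library and 2.04 without the 24 h EV library. None of the 4 passed in edgeR's quasi-likelihood test (adjusted p 0.798 to 0.802), and neither did any of the 669 genes (0.0% called, 38 or 5.68% at an unadjusted p under 0.05, 5 called in DESeq2 and 0 in limma). The median over all genes was 0.32 on this scale, and 0.49 over the 4 members. In EV, counted library against library, SAMD9 was 1.73-fold higher at 48 h (1.57 to 1.92), DTX3L 1.45-fold, APOL6 1.21-fold and PARP9 1.19-fold. With the BTN1A1 label and housekeeping scaling APOL6 was 3.26-fold higher at 48 h (2.22 to 4.86), PARP9 1.47-fold, DTX3L 1.30-fold and SAMD9 1.10-fold. APOL6 ranked 2 of 641 genes in that last comparison and 228 of 631 in EV, a contrast noticed after its values were seen and not tested. For DTX3L and SAMD9 under the BTN1A1 label the direction depended on the scaling. From 24 h to 48 h DTX3L went from 446.7 to 447.0 with TMM scaling and from 463.7 to 431.6 with median-ratio factors. SAMD9 went from 81.4 to 68.85 and from 84.51 to 66.49, while PARP9 and APOL6 stayed higher at 48 h.

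Ratios of counts within a library need no scaling, and they showed how the members moved against each other. PARP9 over DTX3L was 0.70, 0.90 and 0.74 in EV (untreated, 24 h, 48 h) and 0.42, 0.42 and 0.48 with the BTN1A1 label. The vectors did not overlap, with a log2 difference of -0.81 between means of -0.37 ± 0.19 (SD, n = 3 conditions) and -1.17 ± 0.10. In an exact two-sided permutation test p was 0.1, the smallest that 3 against 3 can give, and 0.3 after Benjamini-Hochberg adjustment over 6 pairs of members. The test took the 3 conditions of a vector as interchangeable and ignored their pairing between vectors. It could not have reached 0.05 at any values. With the immune marker median subtracted the ratios were 0.68, 0.90 and 0.74 in EV and 0.31, 0.39 and 0.46 with the BTN1A1 label, still apart.

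DTX3L over SAMD9 was the other pair that did not overlap, at 2.66, 3.32 and 2.78 in EV and 4.29, 5.49 and 6.49 with the BTN1A1 label (log2 difference 0.88, exact permutation p 0.1, adjusted 0.3). DTX3L thus stood higher against both PARP9 and SAMD9 with the BTN1A1 label, while PARP9 over SAMD9 overlapped between the vectors (1.87, 2.98 and 2.05 against 1.82, 2.33 and 3.12; exact permutation p 0.8). The share of all gene pairs on the panel that do not overlap between vectors is not given. The pairs that did not overlap are therefore a description, and nothing particular to the members is read from them. APOL6 over SAMD9 went from 0.60 to 1.48 and 1.03 in EV and from 0.75 to 0.51 and 1.53 with the BTN1A1 label, so its highest ratio came at 24 h in EV and at 48 h with the BTN1A1 label.

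**Figure D4:**
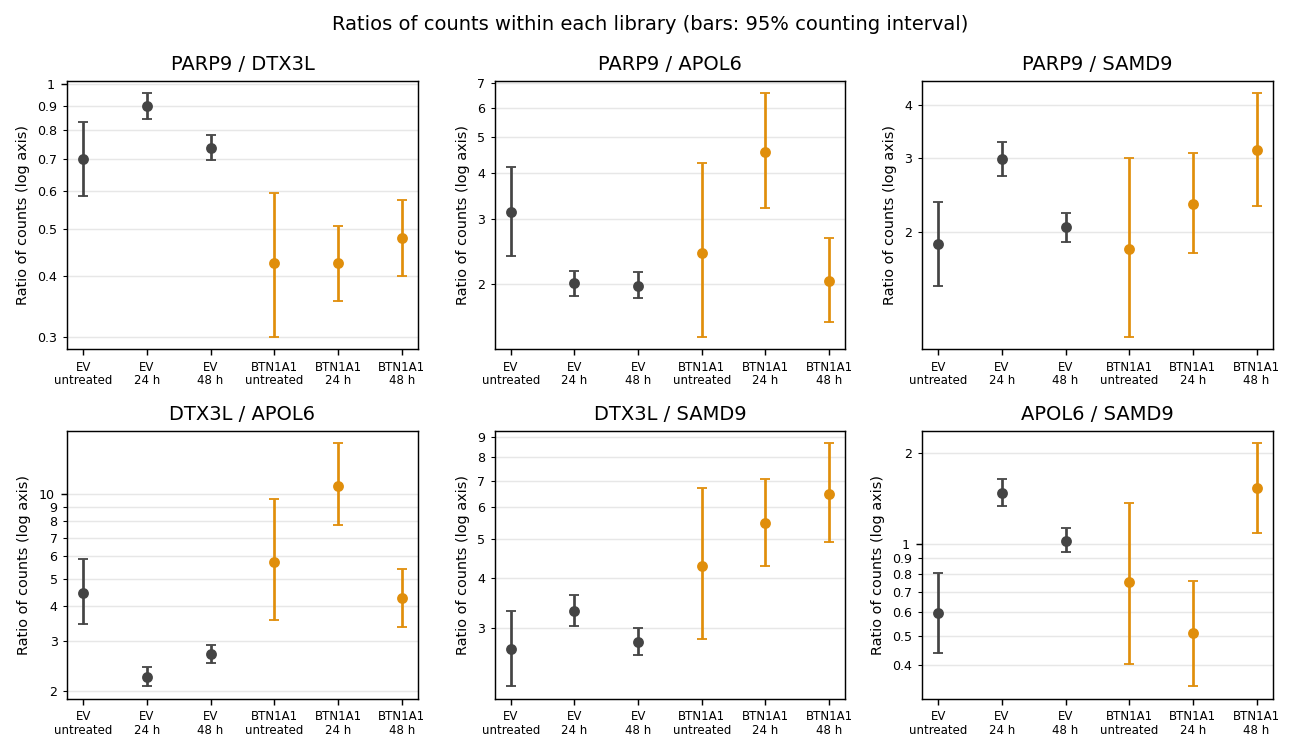
Ratios of raw counts between each pair of members within a library (log axes) with 95% counting intervals, EV in grey and the libraries labelled BTN1A1 in orange. PARP9 over DTX3L lies at 0.70 to 0.90 in EV and 0.42 to 0.48 with the BTN1A1 label, and DTX3L over SAMD9 at 2.66 to 3.32 and 4.29 to 6.49.

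The genes whose log2 scaled counts followed those of a member most closely were named by Pearson's r over the 6 libraries among 669 genes, as a description in which the gap between vectors and the rise after interferon-gamma are shared by all points. PARP9 and DTX3L were each the nearest gene of the other (r = 0.990). PARP9 was next nearest to IFIT3 (0.989), SAMD9 (0.988), APOL6 (0.985) and the endothelin gene EDN1 (0.981). DTX3L was next nearest to IRF1 (0.988), the peptide transporter TAP1 (0.985) and the immunoproteasome subunit PSMB9 (0.984). APOL6 was nearest to the immunoproteasome subunit PSMB10 (0.985), PARP9, the class I transactivator NLRC5 (0.980), PDCD1LG2 (0.978) and GBP1 (0.977). SAMD9 was nearest to EDN1 (0.997), IFIT3 (0.996), IRF9 (0.996), B2M (0.991) and PARP9 (0.988). APOL6 and SAMD9 were the least alike of the members, at 0.969.

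Other genes of the pathway set the 4 in context, again in edgeR's test over all genes. Of 22 antiviral genes 16 rose in EV (median 2.62), among them IFITM1 (4.10), IFI35 (3.97) and IFI16 (3.33), and 1, IFIT3, with the BTN1A1 label (median 0.35), and 7 differed in response, all with the larger rise in EV. Of 14 class I, peptide-loading and immunoproteasome genes 13 rose in EV, among them HLA-B (4.10), and 2, PSMB9 (2.27) and TAP1 (2.25), with the BTN1A1 label, and 11 were lower with that label. Of 19 receptor, JAK-STAT and IRF genes 5 rose in EV, among them IRF9 (2.20) and STAT2 (1.69), and 2, IRF1 one of them, with the BTN1A1 label, where IRF9 (0.81) and STAT2 (0.28) did not pass.

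Of 11 ubiquitin, ISG15 and ADP-ribose genes 5 rose in EV and 0 with the BTN1A1 label, and 6 were lower with that label; this list shares genes with the antiviral list. The ubiquitin ligases HERC6 and TRIM21 rose by 2.66 and 2.64 in EV. PARP12, another member of the PARP family, stood at 110, 505 and 523 counts in EV (log2 rise 2.23, edgeR adjusted p 0.000714) and at 18, 20 and 19, at the background, with the BTN1A1 label. The ubiquitin-like modifier ISG15 rose by 2.02 in EV and was lower by -5.48 with the BTN1A1 label. Of 17 DNA damage repair genes 0 rose or fell after interferon-gamma under either vector, and 6, among them RAD50 (1.79) and FANCA (1.42), were higher and 3, among them NBN (-1.29), lower with the BTN1A1 label. Of 20 cell death genes 2 rose in EV, CASP1 (2.83) and TNFSF10 (2.57), and 0 with the BTN1A1 label, and 9 were lower and 2 higher with that label. Of the 19 housekeeping genes, the same that set the scaling, 0 changed after interferon-gamma, while 3 were higher and 2, among them the transferrin receptor gene TFRC (-1.58), lower with the BTN1A1 label, and in no list did a gene pass for 48 h over 24 h.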

How the data were processed

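Per the labels, total RNA from each culture went onto the PanCancer IO 360 nCounter panel. The deposited values are counts of barcodes for 770 probes in 6 libraries. All 4620 values were whole numbers. For how the authors made the counts, software and settings were not given in the sources used here. Control probes were not used. Groups came from the treatment label.

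Scaling used the geometric mean of 19 housekeeping genes. The 669 genes that reached 20 scaled counts in 2 or more libraries were tested by quasi-likelihood in edgeR (version 4.0.16, under R 4.3.3), with Benjamini-Hochberg adjustment at 0.05. Each SE is the absolute log2 difference over the square root of F, and restates the test, so none is given for the members' responses. Responses and their difference came from a model of vector, treatment and their product, with 24 h and 48 h as repeats. Comparisons of vectors and of times came from an additive model of vector and condition. Each left 2 residual degrees of freedom, so p-values lean on a dispersion pooled over genes (0.0783 and 0.103) and cover no more than the variation among 6 libraries, part of which may be technical. For counts of at least 2-fold, values under 20 were raised to 20.

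Named genes are the members, the 5 genes nearest to each, up to 4 per list by change at 48 h in EV, and a fixed set; not all are reported here. Members and lists were chosen with earlier results of these data known. The scripts were tested on simulated data. Alternatives were other scalings, minimums and tools (DESeq2 1.42.0, limma 3.58.1 with a pseudocount of 1), fewer libraries and background subtraction.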

Additional observations from a re-analysis of the deposited data

Results flagged for a closer look

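Between the vectors, 30 of 669 genes (4.48%) differed in their response in edgeR's test of that difference, 28 with the larger rise in EV and 2 with the larger rise in the BTN1A1-labelled libraries. GBP1, IDO1, IRF1 and IRF8 were among them. The 4 members were among the 669 genes fitted, and their p-values are not given because they were chosen on their responses.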

How the results depend on the processing

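Lower levels of all 4 members with the BTN1A1 label kept their direction and passed in each of 14 alternatives, with log2 differences from -3.34 to -2.49 for PARP9, -2.49 to -1.68 for DTX3L, -3.91 to -2.62 for APOL6 and -3.46 to -2.57 for SAMD9 (adjusted p at most 0.011, for DTX3L). For 48 h over 24 h no member passed in any of 15 alternatives (lowest adjusted p 0.0859, for APOL6). SAMD9 reversed to -0.10 (adjusted p 0.98) without the 48 h EV library and ranged up to 0.98 without the 48 h BTN1A1-labelled one. When 1 library was left out, APOL6 ranged from 0.0098 to 2.04, PARP9 from 0.054 to 0.79 and DTX3L from 0.15 to 0.73. The count of genes for interferon-gamma in EV, 76, became 165 (63 higher, 102 lower) with total count scaling, and 46 to 95 when 1 library was left out, 46 being without the 48 h EV library. The count with the BTN1A1 label, 7, became 0 in edgeR with TMM scaling, median-ratio factors and a minimum of 50 (17, 18 and 15 at an unadjusted p under 0.05), 4 with these libraries alone, 5 in DESeq2, 8 in limma, and 0 to 9 when 1 library was left out (0 without the 48 h library of that label, 1 without either treated EV library). The count for response differences, 30, became 15 with TMM scaling, 19 with median-ratio factors, 33 (12 and 21) with total counts, and 12 to 39 when 1 library was left out (12 and 18 without the 48 h and 24 h EV libraries). For 48 h over 24 h, 0 became 2 with total counts, 5 in DESeq2, 12 with treated libraries alone, 12 with treatment, product and time as terms, and 0 to 12 when 1 library was left out (12 without either untreated library, 5 without the 24 h EV library). The cause of these shifts was not tested. The difference in PARP9 over DTX3L was -0.88 to -0.70 when 1 library was left out and -1.004 after background subtraction, and that in DTX3L over SAMD9 was 0.74 to 1.04 and 1.60, alternatives chosen after seeing the data. Counts near background limit APOL6 and SAMD9 in the untreated library labelled BTN1A1. No paired analysis was possible by replicate number, because the labels carry none and each group holds 1 library; the additive model already compares the vectors within each condition.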
